A study of Mus musculus with 8 samples.

Results

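MicroRNAs miR-221 and miR-222 are encoded side by side on the mouse X chromosome, and each was measured by 1 real-time PCR assay in renal artery cells of mice that were sorted as CD34+/CD105-. The members were the assays named mmu-miR-221 and mmu-miR-222, which are 2 of the 750 distinct miRNA assays of the study. No other assay carried either name. The cells came from 4 mice with renal ischemia/reperfusion injury (I/R), in which microvascular clamps were placed on the renal arteries of both sides, and from 4 mice with sham surgery. All 8 samples were sorted for the same surface phenotype. CD34 marks progenitors and endothelium, and CD105, or endoglin, marks endothelium and mesenchymal stroma. The sources used here do not give strain, genotype, age, length of ischemia or time after reperfusion.

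A miRNA is a short RNA that lowers the output of messenger RNAs paired to its seed, the bases 2 to 8 from its 5′ end. The cluster of miR-221 and miR-222 is known for lowering the stem cell factor receptor KIT and the cell cycle inhibitor Cdkn1b. In human endothelial cells it is known to restrain growth and tube formation, whereas in rat vascular smooth muscle cells it is known to favour proliferation. None of these targets was measured here.

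The mature sequences from RefSeq (GRCm38.p6) are shown because the seed defines what the cluster members share. The deposited names carry no arm, and the names miR-221 and miR-222 are the older names of the 3p arms. Capitals mark the seed, and sequences run 5′ to 3′.
miR-221-3p: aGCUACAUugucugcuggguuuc
miR-222-3p: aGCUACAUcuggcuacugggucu
miR-1928: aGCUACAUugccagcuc
The 2 cluster members have 23 bases each and share their first 8 bases. Over their whole length, 11 of the 23 positions are identical without gaps. Of 1679 mature mouse miRNA names in the RefSeq table, 3 carry this seed, which is 0.179%, and all 3 were on the cards. The third is miR-1928, a 17-base miRNA from chromosome 1 that shares its first 10 bases with miR-221-3p. It has no role known with enough certainty to state here.

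Both cluster hairpins lie on the minus strand of chromosome X. Mir221 is at chrX:19146294-19146388 and Mir222 at chrX:19146893-19146971, with 504 bases between them. They are shown because 1 precursor yields each assayed miRNA, and capitals mark the mature 3p arm within the hairpin.
Mir221 hairpin: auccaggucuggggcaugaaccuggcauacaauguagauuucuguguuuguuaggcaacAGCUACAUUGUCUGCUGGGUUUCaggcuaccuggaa
Mir222 hairpin: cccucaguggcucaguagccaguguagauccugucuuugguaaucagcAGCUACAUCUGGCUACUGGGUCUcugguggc
No other annotated gene overlaps the interval of the 2 hairpins in the RefSeq table. The nearest is the long noncoding RNA gene Gm14636, which begins 9499 bases beyond Mir222 on the side of higher coordinates.

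The threshold cycle (Ct) is the PCR cycle at which signal appears, so it is lower where more RNA is present. An assay counted as detected below Ct 35. The I/R samples had 82 to 98 detected miRNA assays and the sham samples 75 to 163, with the lowest number in sham mouse 2. Averaged over the 54 miRNAs present in all 8 samples, Ct was 27.7 to 28.1 in I/R mice and 24.8 to 28.4 in sham mice. Both endothelial markers, miR-126-3p and miR-126-5p, were detected in both groups. Of the 12 epithelial marker assays, 1 was detected in any I/R mouse and 3 in any sham mouse, and 0 of 3 erythroid marker assays were detected. Of 7 leukocyte marker assays, 5 were detected in any I/R mouse and 6 in any sham mouse. For 6 striated muscle marker assays these counts were 1 and 2, and for 6 fibroblast marker assays 5 and 5. Fewer cells of a type and less of a miRNA per cell cannot be told apart in these pooled cells.

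miR-222 was detected in all 8 mice. Its Ct was 29.0, 29.8, 29.8 and 31.0 in I/R mice 1 to 4, against 26.9, 29.2, 24.1 and 25.4 in sham mice 1 to 4. The I/R mice lay close together, whereas the sham mice spread over 5.09 cycles, with sham mouse 2 inside the I/R range. The mean Ct was 29.9 ± 0.84 in I/R mice and 26.4 ± 2.18 in sham mice (SD, n = 4 each).

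miR-221 was scarcer. None of the 4 I/R mice had a Ct for it, whereas sham mice 1, 3 and 4 had Ct 33.4, 30.0 and 31.4 and sham mouse 2 had none. All 5 wells without miR-221 were undetermined and held no late Ct, while 185 miRNA wells of the study, 17.6% of those with a Ct, came up at Ct 35 or later. Detection in 0 of 4 I/R mice against 3 of 4 sham mice did not pass a two-sided Fisher's exact test (p = 0.143). The same pattern was found in 9 of all 750 assays (1.2%), and all 9 lacked sham mouse 2. The reverse pattern was found in 1 assay (0.133%). Without sham mouse 2 the exact p for miR-221 was 0.0286. That mouse was left out after its missing miR-221 well was known, so this p is no separate test.

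Where both members were detected, they kept a nearly fixed distance. miR-221 came up 6.46, 5.89 and 5.99 cycles after miR-222 in sham mice 1, 3 and 4, a mean of 6.11 ± 0.30 cycles (SD, n = 3). If both assays amplify fully, this corresponds to 69.2 times less miR-221. The 2 assays can differ in efficiency, so the ratio of the RNAs is known only to that extent. The offset spanned 0.57 cycles among these mice, while the miR-222 Ct spanned 2.85 cycles.

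The same offset can be set beside the mice without a miR-221 signal. Adding 6.11 cycles to the miR-222 Ct gave 35.1, 35.9, 35.9 and 37.2 in I/R mice 1 to 4 and 35.3 in sham mouse 2. All 5 sums lay past the limit of Ct 35, and none lay past Ct 40. Whether the offset also holds in I/R cells was not tested, since no I/R mouse had both values. All 5 wells were undetermined and held no late Ct, so they give no value to set against these sums. Whether miR-221 changed apart from miR-222 was not tested.

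**Figure D1:**
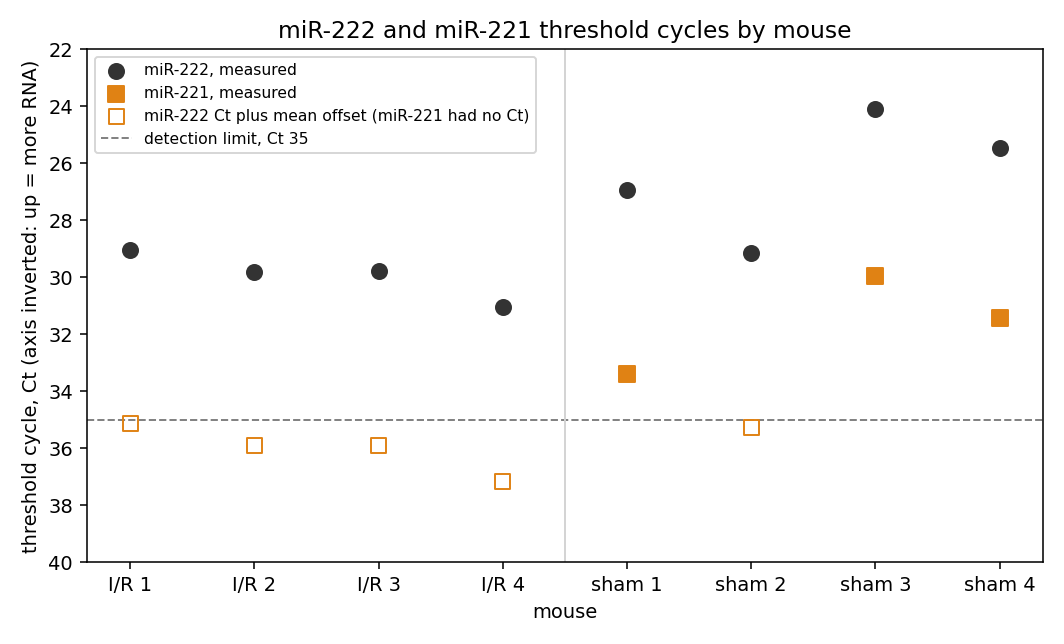
Threshold cycles of miR-222 (circles) and miR-221 (filled squares) in the 4 I/R and the 4 sham mice, on an inverted axis so that more RNA is higher. Open squares are the miR-222 Ct plus the mean offset of 6.11 cycles in the 5 mice where miR-221 had no Ct, and all 5 fall past the dashed limit of Ct 35.

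The deposited delta Ct subtracts 1 reference value per sample and card. With its sign turned, higher values mean more RNA on a log2 scale. miR-222 was at -8.01, -7.42, -9.25 and -9.37 in I/R mice 1 to 4, against -6.28, -6.72, -5.07 and -7.51 in sham mice 1 to 4. The groups overlapped in a single pair, as I/R mouse 2 lay slightly above sham mouse 4. Means were -8.51 ± 0.95 in I/R mice and -6.39 ± 1.02 in sham mice (SD, n = 4 each).

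The log2 difference of miR-222 was -2.12 ± 0.74 (SE; 95% interval -3.80 to -0.44), which is 4.34-fold lower after I/R. The authors' deposited table gives the same comparison as a fold of 0.230 and lists no fold for miR-221. By limma over 72 miRNAs, the unadjusted p was 0.0191 and the Benjamini-Hochberg adjusted p was 0.228, so the difference did not pass the threshold of 0.05. An exact two-sided permutation test of the single value gave p = 0.0571, where the smallest p that 4 against 4 mice allow is 0.0286. By limma, 0 of the 72 miRNAs passed the adjusted threshold. At an unadjusted p under 0.05, 10 were lower (13.9%) and 0 higher, and miR-222 had rank 3 of 72 by p. Without I/R mouse 3, I/R mouse 4 or sham mouse 3, its unadjusted limma p was 0.0502, 0.0538 or 0.0592. By size of the fall, 9 miRNAs had lower log2 differences than miR-222.

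Most miRNAs were on the lower side in this comparison, with 49 of 72 (68.1%) having a lower and 23 (31.9%) a higher mean after I/R, and a median log2 difference of -0.80. Relative to that median, miR-222 was at -1.32. Reference values differed as well. The card 1 reference Ct, from the card of miR-221 and miR-222, was 21.4 ± 0.80 in I/R mice and 20.0 ± 1.97 in sham mice (SD, n = 4 each; exact permutation p = 0.286). Without normalization miR-222 was at -3.51 and the median of the 72 at -1.93. With those 54 miRNAs averaged as the reference, miR-222 was at -1.82 and the median at -0.24. In both cases miR-222 was at -1.58 relative to the median. Each of these settings shifts every miRNA of a sample by the same amount, so this distance could hardly differ between them.

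**Figure D2:**
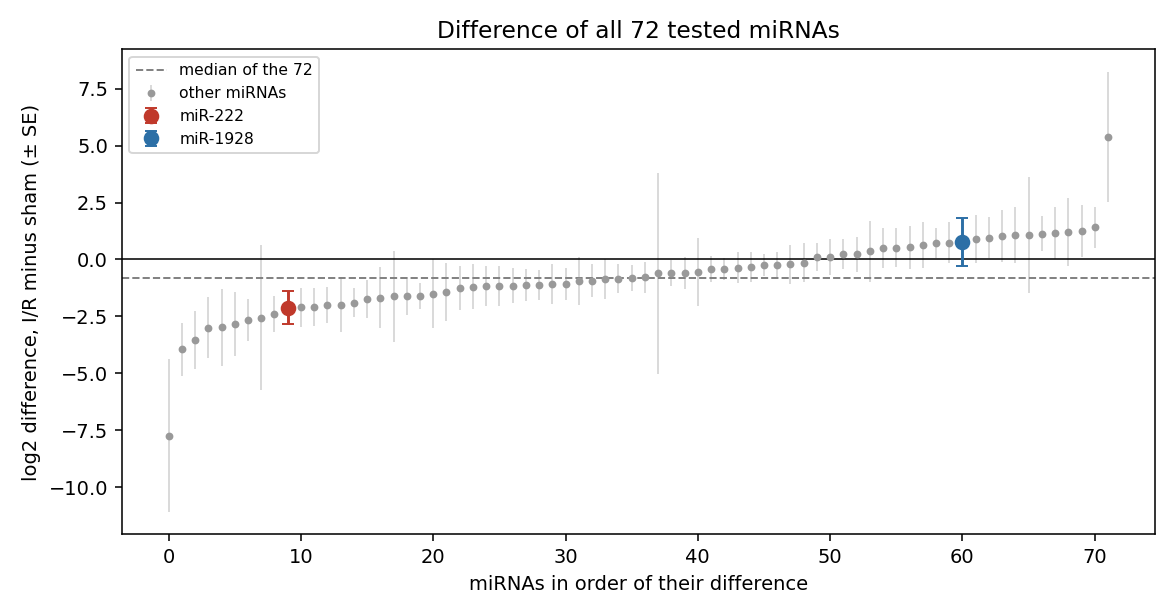
Log2 differences, I/R minus sham, of all 72 tested miRNAs in order of size, with standard errors. miR-222 lies at -2.12 and miR-1928 at 0.77, beside a median of -0.80 (dashed).

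A measure that does not use the deposited reference is the place of miR-222 among the miRNAs of its own card within each mouse. Of the 34 card 1 miRNAs detected in all 8 mice, miR-222 ranked 24, 23, 25 and 23 by Ct in I/R mice 1 to 4, against 20, 21, 7 and 22 in sham mice 1 to 4. Rank 1 is the lowest Ct. Every I/R rank was later than every sham rank, and sham mouse 3 stood apart from the other sham mice. The position in cycles takes the median Ct of those 34 miRNAs as its reference, so it is another normalization. Against that median, miR-222 was at -1.41 ± 0.53 cycles in I/R mice and 0.11 ± 1.24 cycles in sham mice (SD, n = 4 each). Positive values mean more RNA than the median.

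The difference in position was -1.51 cycles. It was chosen after the data were seen, and it gave an exact two-sided permutation p of 0.0286, the smallest that 4 against 4 mice allow. The same test on all 34 miRNAs gave miR-222 an adjusted p of 0.486, and 0 of 34 passed. At the smallest p that these mice allow, a miRNA could pass adjustment only if most of the 34 reached it together, so this count adds nothing. A complete separation with lower I/R values was found in 1 of the 34 (2.94%), which was miR-222, and with higher I/R values in 0. On the minus delta Ct scale, every I/R value lay below every sham value in 5 of the 72 miRNAs (6.94%), and miR-222 was not among them. Without sham mouse 3 the difference in position was -0.91 cycles (exact permutation p = 0.0571). Leaving out any of the 4 I/R mice also took the exact p above 0.05.

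**Figure D3:**
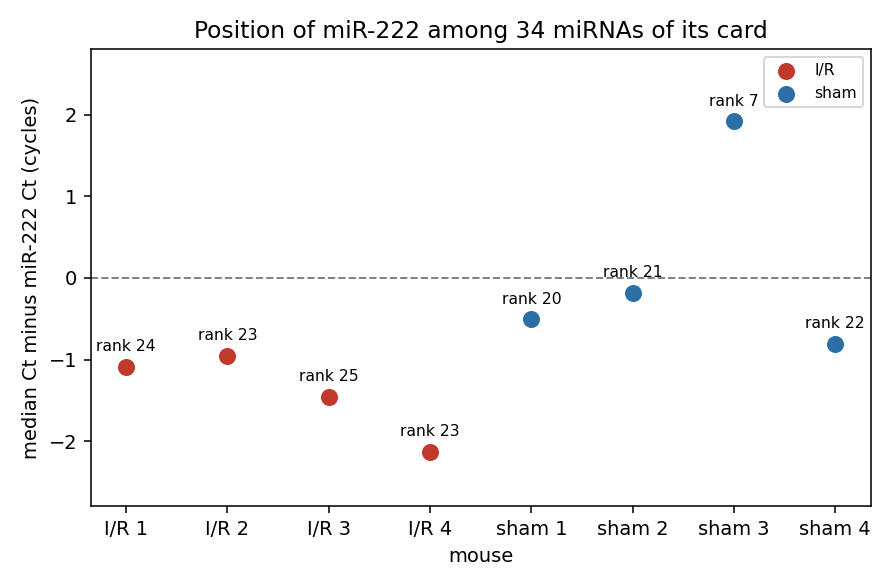
Median Ct of the 34 miRNAs of card 1 minus the Ct of miR-222 in each mouse, in cycles, with the rank of miR-222 printed above each point. The I/R mice lie between -2.13 and -0.96 and the sham mice between -0.81 and 1.92.

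For miR-221, the same scale gives only limits in most mice. Sham mice 1, 3 and 4 were at -12.73, -10.96 and -13.50, a mean of -12.40 ± 1.30 (SD, n = 3). Ct 35 corresponded to limits of -13.98, -12.63, -14.48 and -13.33 in I/R mice 1 to 4 and -12.56 in sham mouse 2. The level of sham mouse 3 lay above the limits of all 4 I/R mice, that of sham mouse 1 above 3 and that of sham mouse 4 above 2. A level like that of sham mouse 4 was thus not detectable in I/R mice 2 and 4.

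When wells without detection were given Ct 35, the log2 difference of miR-221 was -1.17 ± 0.76 (SE, 4 mice per group). By limma, p was 0.159 unadjusted and 0.449 adjusted over the 114 miRNAs detected in at least 3 mice of either group. miR-221 entered only through its sham values, and all 4 I/R values were Ct 35 set against the reference. The I/R spread behind this SE and p is that of the reference, so neither measures the spread of miR-221 in I/R mice. In that fit 1 miRNA (0.877%) passed, which was hsa-miR-421 and not a cluster member. At an unadjusted p under 0.05, 19 (16.7%) were lower and 2 (1.75%) higher. These counts include miRNAs that entered through 1 group only, as miR-221 did. The miR-221 value is a limit for I/R mice, but not a strict bound on the difference, because sham mouse 2 was set to the same limit. It moved to -2.67 with a limit at Ct 37 and to -4.92 with undetermined wells at Ct 40. It was -2.56 without normalization and -0.67 without sham mouse 3.

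miR-1928 carries the same seed on the other card and was detected in all 8 mice. Its minus delta Ct was -9.02, -10.47, -10.55 and -8.88 in I/R mice 1 to 4, against -9.16, -8.79, -10.75 and -13.30 in sham mice 1 to 4. The groups overlapped, and sham mouse 4 was the lowest of all on this scale. Its Ct of 32.1 lay within the I/R range of 30.5 to 33.1, while its card 2 reference Ct of 18.8 was the lowest of the 8 mice. Mean Ct of miR-1928 was 31.6 ± 1.22 in I/R mice and 31.4 ± 0.70 in sham mice (SD, n = 4 each). The log2 difference was 0.77 ± 1.04 (SE; 95% interval -1.59 to 3.12; limma adjusted p = 0.651). Its direction turned to -0.26 without normalization and to -0.17 without sham mouse 4.

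The 2 carriers of the seed that were detected in all 8 mice were also compared within each mouse. miR-222 minus miR-1928 was 1.22 ± 1.45 in I/R mice and 4.10 ± 1.91 in sham mice on the minus delta Ct scale (SD, n = 4 each). By exact permutation, two-sided, the difference of -2.88 had p = 0.0857, so a different response of the 2 miRNAs was not established.

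**Figure D4:**
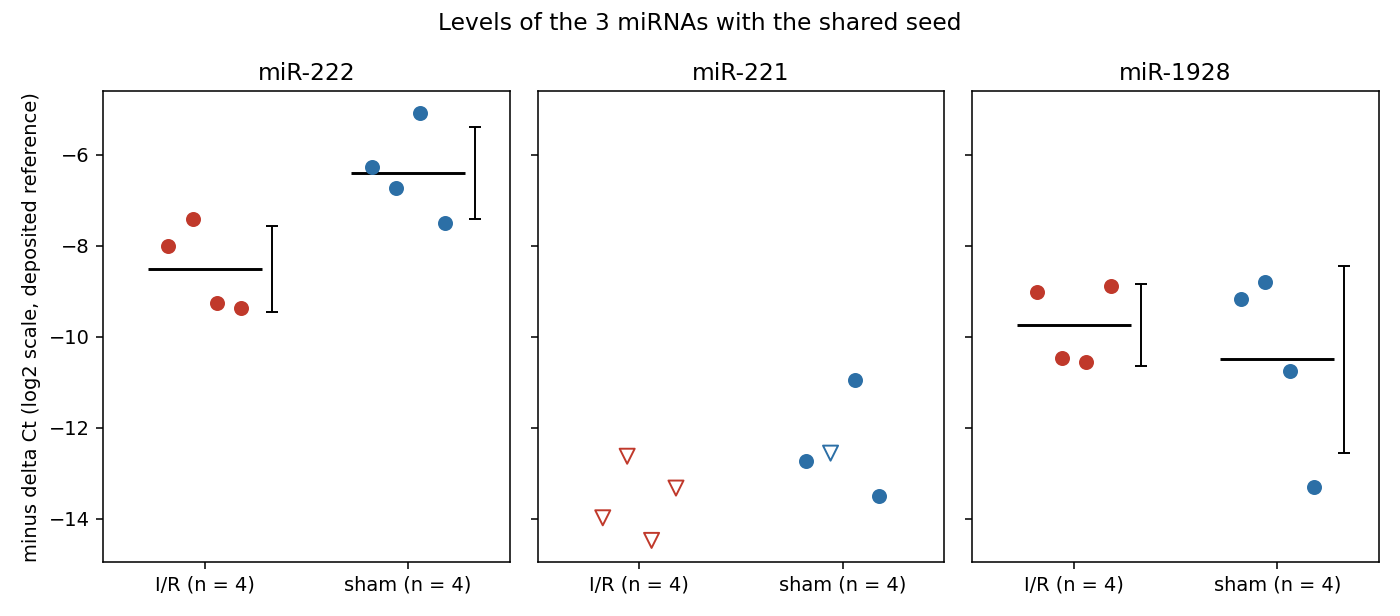
Minus delta Ct (log2 scale) of miR-222, miR-221 and miR-1928 in I/R (left) and sham (right) mice. Filled points are detected values, open triangles are the limits of mice without a signal, and lines with bars give the mean ± SD where all 4 mice had a value.

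Profiles over the 8 mice were compared by the root mean square difference of minus delta Ct, each miRNA centred on its own mean. Of 53 other miRNAs detected in all samples, the nearest to miR-222 were miR-191 (0.94), miR-19b (1.02) and miR-218 (1.03), where the median of the 53 was 1.51 log2 units. The values share the reference of each sample. The log2 difference of miR-191 was -1.06 ± 0.70. miR-19b, a member of the miR-17-92 cluster, was at -0.41 ± 0.58, and miR-218, an intronic miRNA of the Slit genes, was at -1.89 ± 0.66 (SE, n = 4 per group). None of the 3 passed the limma threshold, with adjusted p of 0.510, 0.666 and 0.228.

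**Figure D5:**
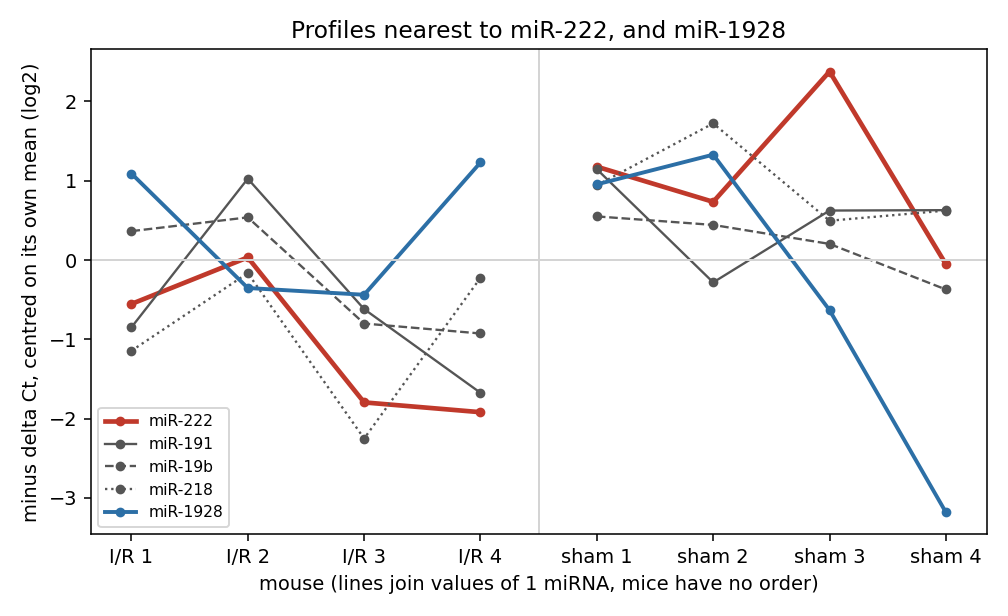
Minus delta Ct of miR-222, its 3 nearest profiles and miR-1928, each centred on its mean over 8 mice (log2 units). Sham mouse 3 is the highest for miR-222, and sham mouse 4 is the lowest for miR-1928.

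Other miRNAs of vascular and progenitor cells were read from lists, beside a share of 68.1% with lower means over all 72 tested miRNAs. Of the 9 tested endothelial and angiogenic miRNAs, 0 passed the limma threshold, 7 had lower and 2 higher means, and the median log2 difference was -0.81, beside -0.80 for all 72. The smallest p were those of miR-218, of miR-126-3p (-1.59 ± 0.57), which sustains endothelial growth factor signalling, and of miR-100 (-1.99 ± 1.22; 4 I/R and 3 sham values). With the undetected sham mouse 2 at Ct 35, miR-100 was at -0.79. Of 3 tested miRNAs of the smooth muscle phenotype, 0 passed and all 3 had lower means, with a median of -2.09. Whether these 3 differ from the 68.1% over all 72 was not tested. They were miR-145 (-2.09 ± 0.84), which favours the contractile state, miR-21 (-2.99 ± 1.33; 3 values per group) and miR-26a (-1.11 ± 0.65). Of 6 tested miRNAs listed for KIT and progenitor proliferation, 0 passed and the median was -1.03. In this list 4 had lower and 2 higher means, near the share over all 72. The smallest p were those of miR-16 (-1.60 ± 0.82), which targets cyclins, miR-24 (-0.81 ± 0.57) and miR-195 (-1.24 ± 0.97).

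Of 4 tested fibroblast marker assays, 0 passed the limma threshold. All 4 had lower means, beside 68.1% of all tested miRNAs, with a median log2 difference of -2.16. They include miR-214 by both the mmu assay (-3.95 ± 1.17; 3 sham values, and -2.54 with the undetected sham mouse 2 at Ct 35) and the hsa-miR-214 assay (-0.86 ± 0.87). The summed level of the fibroblast markers, relative to the reference, overlapped between groups, at 0.0207 to 0.0376 in I/R mice and 0.0162 to 0.0969 in sham mice. Of the 2 endothelial marker assays, miR-126-3p had a lower mean and its partner arm miR-126-5p was at 0.11 ± 0.60, and neither passed. Their summed level was 0.0181 to 0.0380 in I/R mice and 0.0377 to 0.113 in sham mice. Of 3 tested leukocyte marker assays, 1 had a lower and 2 a higher mean, and 0 passed. The leukocyte marker assays summed to 0.00183 to 0.0598 in I/R mice and 0.00280 to 0.0219 in sham mice. The epithelial marker assays summed to between 0 and 0.0571 in I/R mice and between 0 and 0.363 in sham mice. These sums came from miR-192, miR-194 and miR-203, none of which was detected in enough mice for a test. All miR-200a, miR-200b, miR-200c, miR-141, miR-429, miR-205 and miR-215 assays were undetected. The part of these cell types in the miR-222 difference was not tested.

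Few other miRNAs of the X chromosome could be tested. Of 87 miRNA assays placed only on chromosome X by name, 14 were detected in any mouse and 5 were tested. miR-222 was the only one of the 5 with a lower mean, and the median of the 5 was 0.73. X-linked assays that were detected in too few mice for this test are not covered by these values. Over all 72 tested miRNAs, 68.1% had a lower mean and the median was -0.80. The 5 include both assays of miR-223. The filter of at least 3 mice per group left out miR-221, which was at -1.17 with empty wells at Ct 35. That value rests on the sham detection of miR-221 and on the limit of Ct 35. It does not show whether a lower mean is particular to miR-222 among X-linked miRNAs. miR-363, from the miR-106a-363 cluster, was at 1.24 ± 1.14. The myeloid miR-223 was at 1.15 ± 1.13 by the hsa-miR-223 assay and 0.63 ± 1.00 by the mmu assay, and miR-188-5p was at 0.73 ± 0.90 (SE, n = 4 per group). None of the 5 passed the limma threshold, and the difference between miR-222 and the other X-linked miRNAs was not tested.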

How the data were processed

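Cells were sorted after collagenase digestion, and their RNA, prepared with a mirVana kit, was run on a 7900HT PCR system with FAM label, per the labels' protocols. The deposited Ct values, here treated as a score in cycles, have no normalization. The deposited delta Ct values are on a log2 scale. Each equals the Ct minus 1 reference value per sample and card. The sources used here do not name the reference RNA. The authors computed the deposited fold as a ratio, per the file headers. The delta Ct table has values for 13 wells that have no Ct, and these wells were taken as missing.

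The catalogue numbers form 2 series, taken here as 2 cards. Wells at Ct 35 or later were missing, repeated wells were averaged, and miRNAs detected in at least 3 mice of each group were tested (72) with limma 3.58.1 under R 4.3.3. Tests were two-sided, and Benjamini-Hochberg adjusted p were read at 0.05. Exact tests ran over 70 assignments of mice where all 8 had a value, and over fewer where values were missing. With 3 values per group, complete separation gives a p of 0.1 by this test. Alternatives were other references, detection limits, filters, values for empty wells, leaving out single mice, moderation, mouse number as a block and an exact test. The comparisons of miR-222 with miR-1928 and with the card median were added after seeing the data. Each sample is a separate mouse by its label, and the number of mice limits the precision.

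The cluster members, the lists and the tests were chosen with earlier results of these data known. Named were the members, assays sharing their seed, the 3 profiles nearest to miR-222, the 3 members of each vascular or progenitor list with the smallest p, and up to 4 tested miRNAs of the same chromosome, where both miR-223 assays were given. Chromosomes came from RefSeq by miRNA name, which matched 47 of the 72 tested assays.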

Additional observations from a re-analysis of the deposited data

Results flagged for a closer look

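Of 52 groups of 4 values looked at, 2 held a mouse far from the other 3, and chance gives about 1 in 20 such groups. The rank of miR-222 on its card was 7 in sham mouse 3, where the other sham mice ranked 20 to 22. miR-16 was at -12.06 on the minus delta Ct scale in I/R mouse 4, where the other I/R mice lay between -9.24 and -8.86.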

How the results depend on the processing

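miR-222 stayed below sham and short of the adjusted threshold in all 13 alternatives, between -3.51 and -1.82 on the log2 scale, with adjusted p between 0.0982 and 0.531. Only the changes of reference could move its log2 difference, since miR-222 was below Ct 32 in all 8 mice. In the other alternatives it was fixed at -2.12, and only its p could differ. By the exact test, adjustment could be passed only if most of the 72 miRNAs reached the smallest p together. Without single mice miR-222 ranged from -2.49 to -1.68, lowest without sham mouse 4 and nearest to 0 without sham mouse 3. miR-221 with limits for empty wells ranged from -4.92 to -0.86 over 8 alternatives and between -1.52 and -0.67 without single mice. The miR-221 detection difference lay between -100 and -66.7 percentage points when single mice were left out and was -50 points with a limit at Ct 32 (Fisher's exact p = 0.429), and the miR-222 position from -1.82 to -0.91 cycles. The offset of the 2 members ranged from 5.94 to 6.23 cycles, and miR-222 minus miR-1928 from -3.56 to -2.31. The number of miRNAs past the adjusted threshold was 1 with a limit at Ct 37, with any Ct counted, or with empty wells at Ct 35, and 0 to 1 without single mice. The number at an unadjusted p under 0.05 was 10, against 21 without normalization, 6 with control assays as reference, 4 with a limit at Ct 32, 21 with empty wells at Ct 35 (more miRNAs tested), 2 by the exact test, and 5 to 13 without single mice. Apart from the added miRNAs, the cause of these moves was not tested. miR-1928 turned to -0.26 without normalization and to -0.17 without sham mouse 4, and ranged from -0.17 to 1.34 over single mice left out.

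With mouse number as a replicate block, miR-222 was at -2.12 (limma adjusted p = 0.312), miR-221 with limits at -1.17 (0.557) and miR-1928 at 0.77 (0.678), with 0 miRNAs past the adjusted threshold and 8 at an unadjusted p under 0.05. Same-numbered mice correlated between -0.38 and 0.02 in their deviations over 54 miRNAs, and none correlated best with its own number, so the numbers were not taken as pairs.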
